A study of Mus musculus with 3 samples.

Results

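Deep dermal fibroblasts at birth (P0) were taken here as 300 cells, which is 5.92% of the 5065 cells of the P0 back skin library (exact binomial 95% interval 5.29% to 6.61%) and a small share of the 16235 cells of the whole series. The members were chosen by measured values. A member had no transcript of Cdh5, Ptprc, Sox10, Trp63 or Sox18, which mark vessels, leukocytes, the Schwann and melanocyte lineage, the epidermis, and condensate or lymphatic cells. It also had at least 2 more detected genes out of 6 deep dermal genes (Dpt, Mfap4, Ly6a, Clec3b, Agtr2, Aspn) than out of 6 upper dermal genes (Wif1, Itih5, Pth1r, Twist2, Egfl6, Wisp1). In all, 2680 P0 cells had the required zeros, and the 2380 of them that were not members served as the reference. The 1460 of these with at least 2 more upper than deep genes are called upper dermal cells, so they are part of the reference, and the members are shared by every comparison.

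The study followed hair follicle formation in back skin of male C57BL/6 mice with 3′ single-cell RNA sequencing in droplets. Skin of several animals was pooled into 1 library per stage, for embryos of E13.5 and of E16.5 and for newborns. Embryonic skin was digested with trypsin and EDTA and P0 skin with collagenase IV, so stage, library and digestion cannot be told apart. The labels give no genetic change and no treatment for any group.

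Each detected transcript molecule is a UMI, and levels below are UMIs of a gene per 1000000 UMIs of a group of cells (CPM) unless they are given per cell as UMIs per 10000. Differences are log2 ratios of CPM after 10 was added to each, which understates the difference of genes at low levels. Intervals are 95% exact Poisson or exact binomial intervals and cover counting error only. Cells of 1 library are not replicates, so no test was run and every difference is a description of these cells. Because the rule read the same transcriptomes, the differences between members and other P0 cells follow in part from the choice of cells.

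The dermis is built by fibroblasts that separate into layers before birth. Those of the upper, papillary layer lie against the epidermis, answer Wnt signals from it and take part in follicle formation, while those of the deep, reticular layer lay down fibrillar collagen and give rise to the adipocytes of the dermal fat. Fascia and adventitial fibroblasts lie deeper still and around vessels, and Dpp4, Pi16 and Ly6c1 are among the genes used to recognise them.

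The 3 libraries held 46599806 to 66239195 UMIs, with a median of 6797 UMIs per cell at P0 and 11021 at E16.5. Between 32 and 44 cell barcodes were shared by a pair of libraries. The 300 members held 2322297 UMIs, with a median of 7057 UMIs per cell against 5933.5 in the reference, 5689.5 in the upper dermal cells and 10205 in the 197 cells that met the same rule at E16.5. A doublet caller marked 1 member.

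The genes of the rule describe how the members were picked and are no finding. Ly6a, a surface antigen of mesenchymal progenitors, was detected in 72.3% of members and 6.16% of upper dermal cells. Clec3b, which encodes tetranectin, was detected in 67.7% against 1.51%. Agtr2, an angiotensin II receptor, was detected in 71.0% against 0.616%, and Aspn, a collagen-binding proteoglycan, in 95.3% against 39.0%. Dpt (89.0% against 76.8%) and Mfap4 (84.0% against 55.5%) were frequent in both groups, so the 4 other deep genes set the members apart most. On the upper side, the Wnt inhibitor Wif1 was detected in 18.7% of members and 83.5% of upper dermal cells, Egfl6 in 22% and 85.3%, and the dermal regulator Twist2 in 59.7% and 97.9%.

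The difference between deep and upper genes had no gap at the threshold. There were 347 cells at a difference of 0, 213 at 1, 128 at 2, 87 at 3, 66 at 4, 17 at 5 and 2 at 6. Cells just outside, at 1, had Agtr2 in 25.4% (19.7 to 31.7), Clec3b in 17.4% (12.5 to 23.1) and Col1a1 at 7281 CPM. Cells just inside, at 2, had Agtr2 in 51.6% (42.6 to 60.5), Clec3b in 46.9% (38.0 to 55.9) and Col1a1 at 10736 CPM. The most frequent state among members was all 6 deep genes, in 140 cells, and another 70 had 5. A further 39 members met the rule with 2 deep genes and no upper gene.

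**Figure D1:**
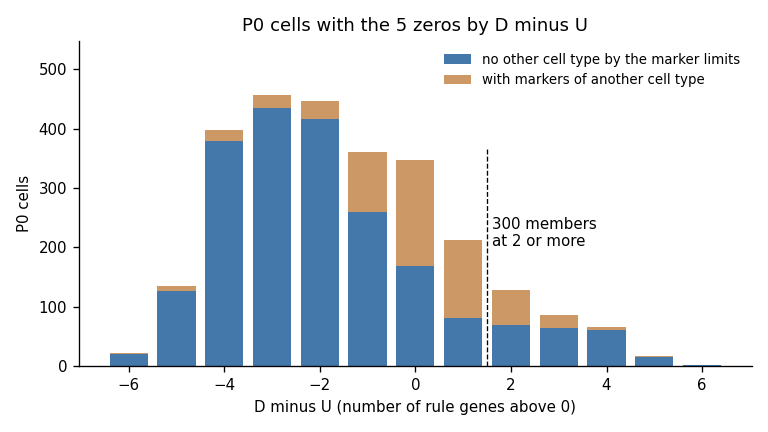
Number of cells (y axis) at each difference between detected deep (D) and upper (U) dermal genes (x axis) among P0 cells with the required zeros, split by whether the cell passed a marker limit of another cell type. The 300 members lie right of the dashed line, at 2 or more, and the counts fall without a gap from 213 cells at 1 to 128 at 2.

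The label was checked against markers of other cell types, and it held for most but not for all members. All 300 members had at least 3 of 8 general fibroblast markers. This cutoff separated little, since 93.7% of P0 cells with Trp63, an epidermal factor, passed it too, but the summed level of the 8 markers was 41912 CPM in members and 3141 CPM in the Trp63 cells. At least 3 of 8 pericyte and smooth muscle markers were found in 57 members (19%, 14.7 to 23.9), against 6.97% of the reference and 1.16% of upper dermal cells. A further 12 members had at least 5 of 8 adipocyte markers, 15 had at least 6 of 8 keratinocyte markers and 3 had at least 3 endothelial, immune or Schwann markers. The 213 remaining members (71.0%, 65.5 to 76.1) are called fibroblast-like below. These limits were set after the values had been seen. At a limit of 3, adipocyte markers were found in 116 members (38.7%), against 4.75% of the reference and 2.47% of upper dermal cells. Among the fibroblast-like members, 93 (43.7%) met that limit.

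Pericytes wrap small vessels and contract, and the 57 members picked by their markers had lower levels of collagen and decorin transcripts than the fibroblast-like members. Rgs5 and Acta2 are among the markers that picked them, so their levels describe the choice. Rgs5, a pericyte regulator of G protein signals, stood at 1975 CPM in them and 22.1 in fibroblast-like members. Acta2, smooth muscle actin, stood at 2741 against 83.3 CPM. Col1a1, the main chain of fibrillar collagen, stood at 1307 against 17225 CPM, and Dcn (decorin) at 343 against 4912. Of these 57 cells, 50 had only 2 or 3 deep genes and 46 had no upper gene, whereas 196 of 213 fibroblast-like members had 5 or 6 deep genes and 6 had no upper gene. Among the deep genes, Aspn was found in 96.5% of the pericyte-marker members but Clec3b in 7.02%.

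Adipoq, Car3, Lpl, Fabp4 and Cd36 are among the adipocyte markers that picked the other 12 cells and kept them out of the fibroblast-like members, so their levels too describe the choice. The 12 members with adipocyte markers held Adipoq, the adipokine adiponectin, at 2782 CPM and Car3, the carbonic anhydrase of fat and muscle, at 8095 CPM. In fibroblast-like members these stood at 14.5 and 25.9 CPM. Lpl, the lipoprotein lipase that frees fatty acids for uptake, differed less, at 2689 CPM in the 12 cells and 1161 CPM in the fibroblast-like members. Col1a1 stood at 3062 CPM and Dcn at 1180 CPM in the 12 cells, between the pericyte-marker and fibroblast-like members.

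Marker lists of further cell types were at low levels. No member had 3 or more dermal papilla, melanocyte, skeletal muscle or cartilage markers, and Sox2, Myod1, Pax7 and Col2a1 were at 0 in all of them. Transcripts of keratinocytes were spread widely. At least 3 of 8 keratinocyte markers were detected in 56.3% of fibroblast-like members and 50.3% of upper dermal cells, at summed levels of 530 and 981 CPM against 15439 CPM in Trp63 cells, and the part of this background in single genes was not tested. Only 47 members had fewer than 3 markers of every other type examined. Each comparison below was therefore made with all members and again with the fibroblast-like cells of both groups.

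**Figure D2:**
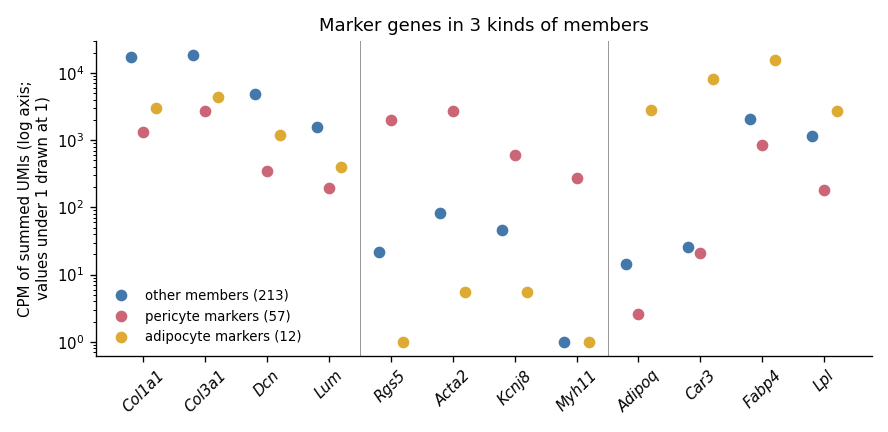
Summed levels of marker genes on a log scale (CPM, y axis) in the 213 fibroblast-like members, the 57 with pericyte markers and the 12 with adipocyte markers. Col1a1 stood at 17225, 1307 and 3062 CPM, and Rgs5, Acta2, Car3 and Adipoq are among the markers that defined the smaller groups.

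P0 cells were also clustered with the rule genes and all listed genes left out of the clustering. A single cluster of 261 cells, here cluster 7, held 176 of the 300 members (58.7%, 52.9 to 64.3), of which 166 were fibroblast-like, and 67.4% of its cells were members. It held 2 of the 1460 upper dermal cells. Cluster 11, led by Acta2, Rgs5, Des and Myh11, held 55 members, of which 54 were among those with pericyte markers. Cluster 1, led by Sfrp2, C1qtnf3 and Thbs2, held 28 members, cluster 19 held 17, and cluster 21, led by Car3, Cfd and Adipoq, held 8. Clusters and rule read the same cells, and the cluster shares are a description.

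Against the upper dermal cells, the members carried more transcripts of most listed matricellular, preadipocyte, Igf, chemokine and complement genes and fewer of most papillary genes. Of 9793 genes with at least 50 UMIs in both groups together, 380 (3.88%) were at least 2-fold higher in members and 292 (2.98%) at least 2-fold lower, with the rule genes left out. Between the fibroblast-like cells of the groups, 308 of 9327 genes (3.3%) were higher and 435 (4.66%) lower by that measure. The median difference of all genes was -0.10 with all cells and -0.18 with fibroblast-like cells, and no difference below was shifted for it. The gene lists that follow are read against these shares, and no list was tested.

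Mfap5 showed the largest difference. It encodes a glycoprotein of the microfibrils that scaffold elastic fibres (chr6:122505845-122529290 on mm10, plus strand). Per cell its level ran from 0 to 52.0 UMIs per 10000 in members, with a median of 0, and from 0 to 3.52 in upper dermal cells, also with a median of 0. It was detected in 101 of 300 members and 17 of 1460 upper dermal cells. The groups overlapped at 0, and no upper dermal cell was above 3.52. Summed, it stood at 257 against 2.08 CPM (log2 4.47, 4.29 to 4.62), and at 358 against 2.27 CPM between fibroblast-like cells. In cells thinned to 3500 UMIs, it was found in 27.0% of members, 0.753% of upper dermal cells and 1.49% of the deeper Trp63 cells (median 10212 UMIs), which should lack it.

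Other elastic fibre and microfibril genes gave a mixed picture, with 6 of 19 that passed the minimum higher, 1 lower and a median of 0.45. Efemp1, a fibulin-like matrix protein, stood at 130.0 against 18.0 CPM (log2 2.32), and Lox, the enzyme that crosslinks collagen and elastin, at 326 against 118 CPM (1.39). Fbn1, fibrillin, the backbone of microfibrils, was at 262 against 104 CPM (1.26). Mfap2, a relative of Mfap5 in the same fibrils, was at 2033 against 2357 CPM (-0.21), and Fbln2 was lower at 78.8 against 180.1 CPM (-1.10). Between fibroblast-like cells the list counted 8 higher and 0 lower, with Fbln2 at -0.74.

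Matricellular genes, whose products sit in the matrix and modulate how cells hold it, were higher in 11 of 17 that passed and lower in 0, with a median of 1.6. Postn (periostin, chr3:54361109-54391037, plus strand) ranged per cell from 0 over a median of 7.75 to 55.8 UMIs per 10000 in members and from 0 over a median of 0 to 24.8 in upper dermal cells. The ranges overlapped, but the lower quartile of members (1.67) lay above the upper quartile of upper dermal cells (1.27). Its summed level was 1160.5 against 79.3 CPM (log2 3.71, 3.6 to 3.82). Igfbp7, a matrix protein related to the Igf binding proteins, stood at 1679 against 123 CPM (3.66), and in thinned cells it was in 88.7% of members, 18.2% of upper dermal cells and 84.4% of Cdh5 endothelial cells, so it was not particular to fibroblasts. Thbs1 (log2 2.97), Tnxb (2.79), Vcan (2.19), Thbs2 (1.98), Nid1 (1.96) and Fn1 (1.72) were higher too. Tenascin-X, the product of Tnxb, regulates collagen fibril spacing. Tnc, its relative, went the other way at 13.8 against 31.6 CPM without passing 2-fold (-0.81). With fibroblast-like cells only, 11 of 17 matricellular genes were higher and 1 was lower.

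The major fibrillar collagens did not pass 2-fold, whereas 3 minor or associated ones did. Col1a1 ran per cell from 0 over a median of 126 to 623 UMIs per 10000 in members and from 0 over 79.4 to 457 in upper dermal cells, which overlapped almost wholly. Its summed log2 difference was 0.33 (0.31 to 0.35), and that of Col3a1 was -0.09. Col5a3 (2.94), Col14a1 (2.90) and Col12a1 (1.53), of which the latter pair coat fibrils and link them to other matrix, were higher. Between fibroblast-like cells the differences of Col1a1 and Col1a2 were 0.73 and 0.92, below 2-fold. Among these cells Col1a1 had a per-cell median of 167 in members and 81.1 in upper dermal cells. The lower quartile of members, 119, lay above that upper dermal median but below the upper quartile of upper dermal cells, 145. In this comparison 4 of 9 listed genes were at least 2-fold higher, against 3 of 9 with all cells.

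Basement membrane and nonfibrillar collagens went both ways. Col4a2 (log2 2.26), Col4a1 (2.10), Col15a1 (2.40) and Col18a1 (2.04), of basement membranes and their borders, were higher in members. Col26a1 at 11.2 against 199 CPM (-3.30), Col7a1 at 30.1 against 200 CPM (-2.39), which forms the fibrils that anchor epidermis to dermis, Col23a1 (-1.43) and Col8a1 (-1.27) were lower. These 4 and the 4 higher genes stood among 12 that passed, and the median of this list was -0.03. Between fibroblast-like cells the list counted 4 higher and 4 lower of 12, with a median of 0.11.

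Small leucine-rich proteoglycans bind collagen fibrils and set their width. Prelp (log2 2.50), Ecm2 (1.68) and Fmod (1.26) were higher among 8 that passed, the last from only 41 and 14 UMIs. Lum (lumican) was lower at 1185 against 3872 CPM (-1.70, -1.76 to -1.64), with medians per cell of 10.6 and 35.8 UMIs per 10000 and ranges that overlapped. Dcn stood at 3628 against 2817 CPM (0.36).

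Among matrix proteases and their inhibitors, 5 of 14 were higher and 1 lower. Serpinf1, the secreted antiangiogenic factor PEDF, stood at 1008 against 162 CPM (log2 2.57). Pcolce, which speeds the trimming of procollagen, stood at 1792 against 360.2 CPM (2.28), with a median per cell of 17 in members and 2.41 in upper dermal cells. Timp3, an inhibitor of metalloproteinases, was at 208 against 29.1 CPM (2.48), but at 25.9 against 19.9 CPM between fibroblast-like cells (0.26), so nearly all of its difference was lost without the cells that carried markers of other types. The serine protease Htra1 was lower (-1.07), but with fibroblast-like cells only, 0 of 14 genes of the list were lower by 2-fold and 5 were higher.

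Genes of the reticular layer and of preadipocytes were higher in 14 of 17 that passed and lower in 0, with a median of 1.55, and in 12 of 17 between fibroblast-like cells. Dlk1, a membrane protein of preadipocytes (chr12:109452823-109463336, plus strand), ranged per cell from 0 over a median of 48.1 to 320.2 UMIs per 10000 in members and from 0 over 1.84 to 110.4 in upper dermal cells. It was detected in 292 of 300 members. The lower quartile of members, 24.7, lay far above the upper quartile of upper dermal cells, 4.29, and its summed level was 6083 against 469 CPM (log2 3.67, 3.62 to 3.72).

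Lpl and Fabp4 were detected in 235 and 220 of the 300 members and Cd36, the fatty acid translocase, in 100. Lpl (chr8:68880491-68907448, plus strand) ran from 0 over a median of 4.67 to 72.1 UMIs per 10000 per cell in members and from 0 over 0 to 57.6 in upper dermal cells. The highest upper dermal cells reached the range of members, and with cells of other types left out the upper maximum was 8.95. Fabp4, the fatty acid carrier of adipocytes and capillaries (chr3:10204088-10208576, minus strand), ran from 0 over 5.27 to 244 in members and from 0 over 0 to 332 in upper dermal cells, so the ranges overlapped fully. Summed levels were 1046 against 51.0 CPM for Lpl (log2 4.11) and 2810 against 190.4 CPM for Fabp4 (3.81). Between fibroblast-like cells the differences were 4.75 and 4.44. Both genes are among the adipocyte markers by which cells were left out of both groups. The maximum of 8.95 and the differences of 4.75 and 4.44 therefore follow in part from that choice.

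In thinned cells Lpl was in 76.1% of fibroblast-like members, 9.93% of upper dermal cells and 7.80% of Trp63 cells. Fabp4 was in 68.1%, 23.4% and 21.1%, and for both genes the share in upper dermal cells was near that in Trp63 cells. Cd36 was at 180.0 against 11.2 CPM (log2 3.17), and Apoe at 1048 against 247 CPM (2.04). The adipogenic regulators Cebpa (1.58), Ebf1 (1.37) and Pparg (1.15) were higher by less, Pparg from 71 UMIs in all members. Adipoq itself was detected in 16 of 213 fibroblast-like members. G0s2 (1.13) and Pdgfrb (1.64) stood at -0.08 and 0.43 between fibroblast-like cells.

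Igf signals promote growth, and binding proteins hold the ligands. All 9 Igf pathway genes had a difference above 0, and 8 of them passed 2-fold. Igfbp6, which prefers Igf2, stood at 126 against 2.41 CPM (log2 3.46, 3.25 to 3.64) and was detected in 83 members and 21 upper dermal cells. Igf2 stood at 214 against 27.9 CPM (2.56), Igfbp3 at 410 against 87.2 CPM (2.11), Igfbp4 at 169.7 against 40.4 CPM (1.84) and Igf1 at 119.7 against 48.4 CPM (1.15). The receptor Igf1r did not pass (0.38). Between fibroblast-like cells 5 of the 9 passed.

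Several imprinted genes, which restrain or promote growth by parental origin, went the same way as Igf2. Cdkn1c, an inhibitor of cyclin-dependent kinases, stood at 1859 against 417 CPM (log2 2.13), with a median per cell of 13.0 in members and 2.55 in upper dermal cells. H19 (1.62), Plagl1 (1.5) and Zim1 (1.28) were higher. Nnat was the only lower gene of 13 that passed. It had no UMI in members and 220 UMIs, or 24.1 CPM, in upper dermal cells.

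Chemokine and cytokine genes were higher in 9 of 11 that passed and lower in 0, with a median of 1.73, or 2.10 between fibroblast-like cells. Cxcl12, which draws in leukocytes and progenitors (chr6:117168535-117181367, plus strand), ran per cell from 0 over a median of 4.73 to 41.2 UMIs per 10000 in members and from 0 over 0 to 15.8 in upper dermal cells. It was detected in 199 of 213 fibroblast-like members. Its summed level was 652 against 63.0 CPM (log2 3.18, 3.06 to 3.31), and in thinned cells it was found in 80.3% of fibroblast-like members, 15.4% of upper dermal cells and 5.02% of Trp63 cells.

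The neutrophil chemokine Cxcl1 was at 111 against 6.89 CPM (log2 2.84) and came from 53 members. The monocyte and eosinophil chemokines Ccl7 (2.3) and Ccl11 (2.09) came from 16 and 56 members. Csf1, the macrophage growth factor, was at 70.2 against 14.1 CPM (1.73). Ptn (pleiotrophin), a heparin-binding growth factor, was at 333 against 77.8 CPM (1.97), whereas its relative Mdk was at 132 against 189 CPM (-0.49).

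Complement genes were higher in 6 of 7 that passed. Serping1, the inhibitor of the C1 complex, was at 307 against 46.3 CPM (log2 2.50), and the C1 proteases C1s1 (2.45) and C1ra (2.28) were higher too. C3 (1.30) and Cfd (1.10) passed with all members, but stood at 0.07 and 0.20 between fibroblast-like cells, in which C3 had 1.26 CPM.

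Agt, the precursor of angiotensin II (chr8:124556534-124569706, minus strand), was at 169 against 9.40 CPM (log2 3.20). It was detected in 105 members, 65 of them fibroblast-like, and in 33 upper dermal cells, and the per-cell ranges of 0 to 16.7 and 0 to 14.7 overlapped. Its receptor Agtr2 was a gene of the rule, and Agtr1a was at 100.3 against 47.2 CPM (0.95), just under 2-fold. The vasodilator Adm was at 68.5 against 4.70 CPM (2.42), and the endothelin receptor Ednrb was lower with 3 UMIs in all members (-1.05).

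Genes of the papillary dermis were lower in 10 of 15 that passed and higher in 0, with a median of -1.31. Trps1, a zinc finger repressor needed for hair growth (chr15:50654752-50890463, minus strand), ran per cell from 0 over a median of 0 to 4.98 UMIs per 10000 in members and from 0 over 1.71 to 20.2 in upper dermal cells. It was detected in 10.0% of members and 62.1% of upper dermal cells, and stood at 17.7 against 211 CPM (log2 -3.0). Nkd1, a Wnt target and inhibitor (chr8:88521354-88594884, plus strand), was detected in 46 members, or 15.3%, and in 70.6% of upper dermal cells (-2.95, -3.23 to -2.67). In thinned cells Nkd1 was in 7.0% of members and 11.9% of Trp63 cells.

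Crabp1, which binds retinoic acid, was at 21.5 against 193 CPM (log2 -2.69). The Wnt effector Lef1 (-1.26), the Wnt target Axin2 (-1.31), the R-spondin Rspo1 (-1.98) and the Wnt coreceptor Ptk7 (-1.83) were lower. Kctd12 was at 42.2 against 26.1 CPM and did not pass (0.53). Cav1, at -0.95, passed only between fibroblast-like cells (-1.87), where 12 of 14 genes of the list were lower.

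Of 22 other Wnt pathway genes that passed the minimum, 8 were lower and 1 was higher. Rspo3, which amplifies Wnt signals, was at 9.47 against 151 CPM (log2 -3.05). The inhibitor Dkk1 (-2.66), its relative Dkk3 (-2.0) and the transcription factors Tcf4 (-2.07) and Tcf7 (-1.68) were lower. The 8 lower genes thus include Tcf4, which encodes an E protein. Tcf4 is not Tcf7l2, the Wnt effector also called TCF4. Fzd4, a Wnt receptor, was the higher gene at 55.1 against 3.06 CPM (2.32). Among hedgehog genes Gas1, a coreceptor, was lower (-1.50), and the targets Ptch1 (-0.77) and Gli1 (-0.53) did not pass. The Bmp ligand Bmp4 was lower (-1.44), and Id3, a Bmp response gene, was higher (1.09). In the Fgf and Pdgf list 2 of 11 were higher and 0 lower, with the growth factor Fgf7 at 1.27 and the feedback inhibitor Spry4 at 1.19. Of 6 retinoid and nuclear receptor genes, Nr2f2 was higher (1.69) and the retinoic acid carrier Crabp2 lower (-1.33).

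**Figure D3:**
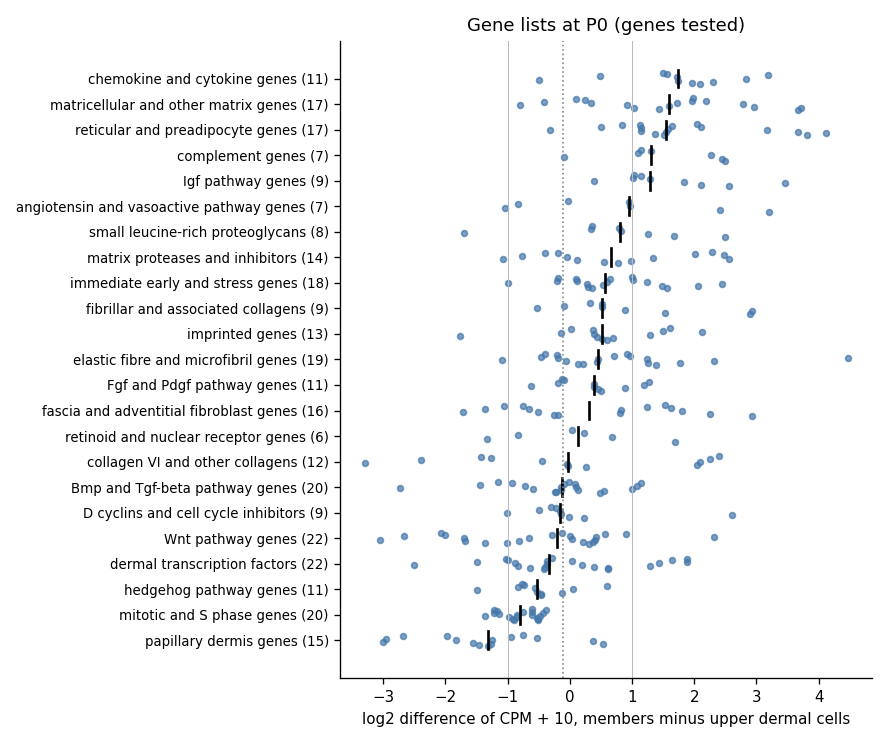
Log2 difference of each listed gene (points; x axis, members minus upper dermal cells, all cells, genes with at least 50 UMIs) and the median of each list (bars), with the number of genes in brackets; the dotted line is the median of all genes and the grey lines are 2-fold. Chemokine, matricellular and preadipocyte genes had medians of 1.73, 1.6 and 1.55, and papillary genes -1.31, while the median of all genes was -0.10.

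Transcription factors of the dermis divided. Nfib (log2 1.88), Hic1 (1.89), which marks quiescent mesenchymal progenitors, Zfhx4 (1.64), Klf2 (1.44) and Meox1 (1.29) were higher, the last from 48 and 23 UMIs. Osr2 (chr15:35296098-35303305, plus strand) was lower, with per-cell levels from 0 over 0 to 13.3 in members and from 0 over 6.77 to 45.6 in upper dermal cells (-2.51). Twist1 (-1.49) and En1 (-1.02), a marker of the back dermis, were lower too, En1 at -0.82 between fibroblast-like cells. Prrx1, a general limb and dermal factor, stood at 140.0 against 137 CPM (0.03).

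Fascia and adventitial genes were split as well, with 6 of 16 higher and 3 lower. Ly6c1 (log2 2.93), which shares sequence with other Ly6 genes so that its reads are uncertain, Gpx3 (2.25), Pi16 (1.80) and Sema3c (1.62) were higher. Pi16 came from 13 members. Dpp4, the other gene often used for these cells, was lower at 10.8 against 43.2 CPM (-1.36), as were Ackr3 (-1.72) and Creb5 (-1.05). Cd34 did not pass (-0.25). With fibroblast-like cells only, 7 of 15 genes of the list were higher and 2 lower, with a median of 0.85 against 0.31 with all cells.

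All 20 mitotic and S phase genes had a difference below 0, 5 of them passed 2-fold, among them Rrm2 (log2 -1.36) and Top2a (-1.14), and 12 passed between fibroblast-like cells. Gas6, which rises in growth-arrested fibroblasts, was at 182 against 21.5 CPM (2.60), and in the same list of 9 cyclins and inhibitors Cdkn2c was lower (-1.01). Immediate early genes were higher in 6 of 18, with Zfp36 (2.45), which destabilises cytokine mRNA, and Junb (2.07) at the top, while the heat shock gene Hspa1a (-0.20) did not pass. All cells had been freed by digestion, and the part of handling in these genes was not tested.

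Genes of no list among the 10 highest were Mup20, Rbp4, Cygb and Mgst1. Rbp4, which carries retinol, was at 492 against 17.9 CPM (log2 4.17). Cygb, a globin of fibroblasts, was at 219 against 6.34 CPM (3.81), and Mgst1, a detoxifying enzyme, at 798 against 60.3 CPM (3.52). Mup20, a urinary pheromone protein with many near-identical copies, was at 217 against 1.42 CPM (4.31), but came from 20 members with 56.3% of its UMIs in 1 cell, and its reads cannot be assigned with certainty. Among the 10 lowest were, besides Col26a1, Rspo3, Trps1, Nkd1 and Crabp1, also Stmn2 (-3.42), a microtubule regulator, the gap junction gene Gja1 (-2.75) and Gm1673 (-2.75).

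Against the full reference of 2380 cells the picture was similar and smaller in size, as the reference holds the upper dermal cells and many cells between the groups. Of 11047 genes, 211 (1.91%) were higher and 188 (1.7%) lower. The 10 highest were Mup20 (log2 3.64), Mfap5 (3.64), Postn (3.07), Cygb (2.88), Igfbp6 (2.85), Rbp4 (2.78), Lpl (2.76), Dlk1 (2.74), Cxcl12 (2.66) and Ly6c1 (2.45). The lowest included Stmn2 (-2.90), Col26a1 (-2.81), Trps1 (-2.56) and Enho (-2.18), a secreted energy balance peptide.

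Across the whole range of the rule's difference, in fibroblast-like P0 cells only, levels differed by degrees for some genes and more steeply for others. From the 148 cells at -6 to -5 to the 79 cells at 4 to 6, Postn went from 30.2 to 2126 CPM, Lpl from 24.6 to 1552 CPM and Dlk1 from 159 to 9139 CPM. Serpinf1 differed early and by degrees, from 78.3 CPM at the lowest difference to 595 at 0, 1013 at 1 and 1451 at 4 to 6. Fabp4 stayed at 322 CPM at 1 and stood at 1357 CPM at 2, and Mfap5 went from 16 CPM at 1 to 299 CPM at 2. The 81 cells at 1 and the 69 cells at 2 are the neighbours across the threshold. With cells of other types kept, Fabp4, itself an adipocyte marker, stood at 2695 CPM at 1 and 2680.4 CPM at 2, while Mfap5 stood at 24.3 and 163 CPM.

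Upper genes went the other way along the same axis. Nkd1 went from 342 CPM to 5.27 CPM and Osr2 from 722 to 118 CPM, and Lum reached a plateau, from 4217 CPM at -2 to 1723 at 1 and 1559 at 4 to 6. Pdgfra, the general fibroblast receptor, stood at 91.8 CPM at the lowest and 96.6 CPM at the highest difference, with values between 73.8 and 124 CPM. Col1a1 had its low values on the upper side, 5249 CPM at -6 to -5, and was 14686 CPM at -2 and 17483 CPM at 4 to 6. Krt14, a keratinocyte keratin, stood highest at 0 and 1 (622 and 808 CPM) and at 135 CPM at 4 to 6, and its part in these middle cells was not tested.

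**Figure D4:**
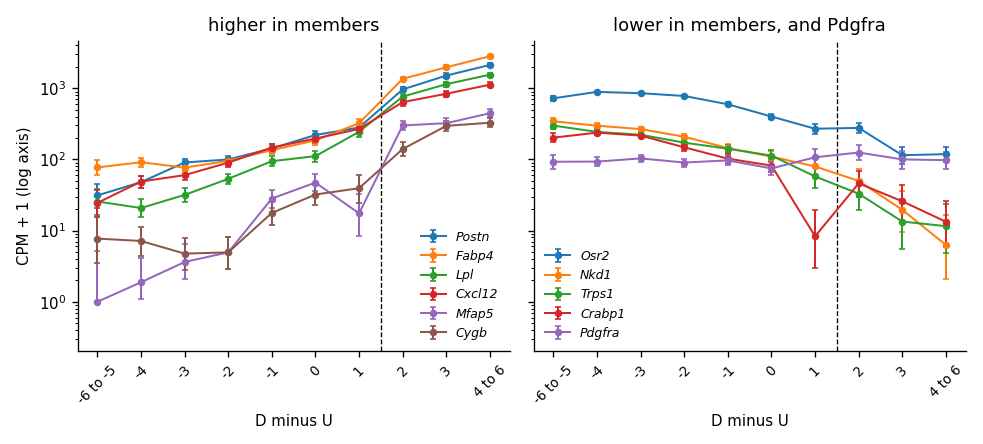
Summed levels on a log scale (CPM with 1 added, y axis; bars are 95% Poisson intervals) along the difference between deep and upper genes (x axis) in fibroblast-like P0 cells; members lie right of the dashed line. Before 1 was added, Postn, Lpl and Fabp4 ended at 2126, 1552 and 2818 CPM, Nkd1 and Osr2 at 5.27 and 118 CPM, and Pdgfra ended at 96.6 CPM.

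The fibroblast-like members were not uniform among themselves. The 166 in cluster 7 and the 28 in cluster 1 differed in the listed genes of this paragraph. Their medians were 6872.5 and 6681 UMIs, 6 deep genes in both, and 2 and 3 upper genes. Cluster 7 as a whole held 2 upper dermal cells and cluster 1 held 142. The part of this in the differences was not tested. In cluster 7 Ptn had 613 UMIs (511 CPM) and in cluster 1 it had 0, at least 32.7-fold less against a floor of 3 UMIs over the group. Agt had 174 UMIs against 0, at least 9.29-fold less in cluster 1. Mfap5 stood at 430 against 5.21 CPM, Postn at 1843 against 151 CPM and Fabp4 at 2245 against 156 CPM. Lpl (log2 2.41, 2.01 to 2.84) and Cxcl12 (1.31, 0.98 to 1.65) differed less, and Dlk1 by 0.95. These genes were all left out when the clusters were made, but the clusters read other genes of the same cells. The differences between clusters are therefore a description and follow in part from that grouping.

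Matrix genes differed in both directions between the clusters. In cluster 1 the Col1a1 level was 25271 against 16712 CPM in cluster 7, Sparc, a collagen-binding matrix protein, was at 24235 against 14920 CPM, and Dcn at 7605 against 4766 CPM. Lox (854 against 400.4 CPM), the Wnt modulator Sfrp2 (1437 against 511 CPM) and Osr2 (474 against 123 CPM) were higher in cluster 1 too. Thbs2 (log2 -0.22) and Col12a1 (-0.01) had intervals that included 0, which ran from -0.60 to 0.17 and from -0.39 to 0.38. Col5a3 (log2 2.89), Col4a2 (2.02), Col14a1 (2.01) and Col4a1 (1.72) were higher in cluster 7, as were Col6a1, Col6a2 and Col6a3 (0.55, 0.56 and 0.62).

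The 16 fibroblast-like members in cluster 19 were deeper, with a median of 9813.5 UMIs. They had Mfap5 at 296 CPM and Fabp4 at 3152 CPM, on the side of cluster 7. Their Top2a level was 291 CPM and their Mki67 level 177 CPM, against 9.18 and 4.17 CPM in cluster 7, so the transcripts of dividing cells among fibroblast-like members were concentrated in few of them. Only listed mitotic genes were left out of the clustering, and others could enter it. This contrast may therefore follow in part from how the cells were grouped. Pi16 was at 177 CPM there, 35.9 CPM in cluster 7 and 0 in cluster 1.

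Detection of Mfap5 and of the lipid uptake genes was compared cell by cell in the 213 fibroblast-like members thinned to 3500 UMIs. Igfbp6 was in 54.1% (42.1 to 65.7) of the 74 cells with Mfap5 and in 10.8% (6.17 to 17.2) of the 139 without. Lpl showed the opposite, in 62.2% (50.1 to 73.2) of cells with Mfap5 and 83.5% (76.2 to 89.2) of those without. For Igfbp6, Lpl was in 69.1% (55.2 to 80.9) of the 55 cells with it and 78.5% (71.2 to 84.6) of the 158 without. These intervals for Igfbp6 overlapped. Fabp4 was in 75.9% (68.6 to 82.3) of 162 cells with Lpl and 43.1% (29.3 to 57.8) of 51 without. Detection of Fabp4 with and without Mfap5, at 62.2% and 71.2%, had intervals that overlapped (50.1 to 73.2 and 62.9 to 78.6). The cells shared a library and the thinned depth, and these pairs were chosen after values had been seen.

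The same rule found 197 cells at E16.5, 3.78% of 5208, of which 43 (21.8%, 16.3 to 28.3) had at least 3 pericyte markers, close to the 19% at P0. Of 7464 genes with at least 50 UMIs, 283 (3.79%) were at least 2-fold higher in the P0 members and 440 (5.89%) lower. Between fibroblast-like cells of both stages, 213 and 137 cells, the counts were 225 (3.79%) and 487 (8.21%) of 5929 genes. The median over all genes was -0.20. Globin and erythroid transcripts differed with the library, with a summed level of 708 CPM at P0 and 7680 CPM at E16.5. At least 3 of the 7 erythroid markers measured were found in 19.3% and 88.8% of cells. Hbb-bt (log2 -4.39), Hba-a2 (-3.28), Hbb-bs (-3.27) and Hba-a1 (-3.18), near-identical copies whose reads are uncertain, were among the 10 lowest. So were Gm42418 (-3.18) and AY036118 (-2.84), which are known to hold ribosomal RNA sequence.

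The 10 highest differences were those of Car3, Fabp4, Adipoq, Mup20, Hspa1a, Agt, Pnpla2, Hp, Trf and Cfd, and several of them were smaller without the 12 adipocyte-marker members and the other cells of other types. Car3 stood at 658 CPM at P0 with 1 UMI at E16.5 (log2 5.99), and between fibroblast-like cells at 25.9 against 0.709 CPM (1.74). Adipoq and Cfd had no UMI at E16.5 and 533 and 218 at P0. Hp, Pnpla2 and Trf were higher by 3.63, 3.88 and 3.43, and by 1.5, 2.09 and 2.53 between fibroblast-like cells. Fabp4 held in both, at 2810 against 76.8 CPM (5.02) and at 2069 against 88.7 CPM (4.40). Lpl was at 1046 against 125 CPM (2.97; fibroblast-like 2.88), Cd36 at 180.0 against 15.4 CPM (2.91) and Apoe at 1048 against 154 CPM (2.69).

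Per cell, Fabp4 ran from 0 over a median of 7.59 to 144 UMIs per 10000 in fibroblast-like members at P0 and from 0 over 0 to 11.4 at E16.5, and Lpl from 0 over 8.0 to 53.3 and from 0 over 0.791 to 12.8. The ranges overlapped in their low part. Dlk1 differed little, at 6083 against 7048 CPM (-0.21), with medians of 48.1 and 71.4, and so did Postn (-0.22) and Mfap5 (0.12, -0.04 to 0.29). The genes that most set members apart from upper dermal cells were thus present at E16.5 at similar levels in the case of these 3, and at lower levels for the lipid genes.

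Complement genes were higher at P0 in 5 of 5 that passed, with a median of 2.12. Serping1 was at 307 against 47.5 CPM (log2 2.46), and C1ra (2.12), C1s1 (1.98), C2 (1.35) and Cfd, above, followed. C3 had 46 UMIs in 11 members and none at E16.5 and was under the minimum. Agt was at 169 against 1.92 CPM (3.91; fibroblast-like 3.46), and Adm at 68.5 against 3.84 CPM (2.50). Among chemokines Cxcl1 (2.55), Ccl2 (2.07) and Cxcl12 (1.51) were higher, whereas Mdk (-2.32), Ptn (-2.02) and Kitl (-1.94), the ligand of the mast cell and melanocyte receptor Kit, were lower. Igfbp7 (3.17), Ly6c1 (3.14), Col15a1 (2.55), Tnxb (2.11) and Bgn (1.33), a small proteoglycan, were higher too.

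Igf2 and several imprinted genes went the other way. Igf2 ran per cell from 0 over a median of 1.36 to 19.3 UMIs per 10000 at P0 and from 0 over 30.1 to 70.0 at E16.5. The upper quartile at P0, 3.42, lay below the lower quartile at E16.5, 17.4, and the summed levels were 214 against 2825 CPM (log2 -3.66, -3.79 to -3.54; fibroblast-like -3.40). Of 13 imprinted genes 7 were lower and 0 higher, among them Mirg (-1.88), an RNA that hosts microRNAs, Plagl1 (-1.64), Grb10 (-1.39), Cdkn1c (-1.28), Peg3 (-1.22) and H19 (-1.17). With fibroblast-like cells only, 5 of 12 imprinted genes were lower and 0 higher. Igfbp5 (-1.96) and Igfbp2 (-1.52) were lower with all cells, and Igfbp3 was higher (2.05).

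Dermal transcription factors were lower in 7 of 20 and higher in 0, with Zfhx4 (log2 -2.08), Zeb1 (-1.75), Twist1 (-1.43), Osr1 (-1.36) and Prrx1 (-1.27) among them. Mki67 (-1.43) and Top2a (-1.27) were lower with 3 further mitotic genes of 20. Crabp1 (-3.51), Dkk2 (-2.58) and the Wnt ligand Wnt5a (-1.89) were lower, as was Basp1 (-2.80). Immediate early genes were higher in 9 of 17 and lower in 1, with Zfp36 at 344 against 34.1 CPM (3.0), and Hspa1a, which has a near-identical copy, at 218 against 4.80 CPM (3.95). In thinned cells Hspa1a was found in 34.7% of members, 34.5% of upper dermal cells and 46.1% of Trp63 cells at P0 and in 2.54% of the E16.5 cells.

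The contrast between deep and upper dermal cells was also set side by side at both stages, where each stage used its own cells. At E16.5, 312 of 11273 genes (2.77%) were higher in the 197 deep cells than in 1943 upper dermal cells and 160 (1.42%) were lower. Among 9616 genes tested at both stages, 157 were higher at both, which is part of 318 at P0 and 276 at E16.5, and 80 were lower at both, part of 288 and 147. Mfap5 differed by log2 4.47 at P0 and 4.28 at E16.5, Postn by 3.71 and 3.93, Igfbp6 by 3.46 and 3.20, Trps1 by -3.0 and -3.21, and Nkd1 by -2.95 and -2.47. Dlk1 differed by 3.67 and 2.47, Lpl by 4.11 and 1.58 and Fabp4 by 3.81 and 1.74. Agt, at 3.20 and 0.17, had 4 UMIs in the deep and 12 in the upper dermal cells at E16.5, under the minimum. The differences between the stages were not tested.

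**Figure D5:**
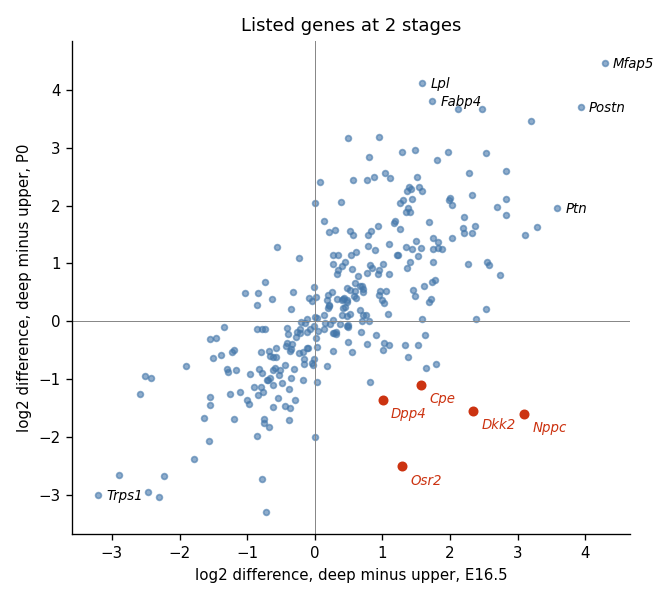
Log2 difference between deep and upper dermal cells at E16.5 (x axis) and at P0 (y axis) for listed genes tested at both stages; the red points are the genes past 2-fold in opposite directions among all genes tested. Mfap5 and Postn lie high at both (4.28 and 4.47, 3.93 and 3.71), Lpl and Fabp4 lie higher at P0, and Osr2 and Dkk2 are among the 5 red points.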

How the data were processed

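Single-cell RNA sequencing of back skin gave 1 library for each of 3 stages. Per the labels, reads were processed with Cell Ranger 2.2.0 on mm10. The authors filtered in Seurat, which left genes found in 3 or more cells and cells in which 1750 or more genes were found. Their table holds 19165 genes and 16235 cells. These are more cells than the study states after its filter, and shares of cells here are of the cells in the table. The deposited unit is a natural log: UMIs were scaled to 10000 per cell, 1 was added, and the log was taken. All 48197283 values above 0 came back as whole UMIs within a tolerance of 0.001. UMIs were summed over cells as CPM, and log2 ratios were taken after adding 10 CPM for genes with at least 50 UMIs in both groups together, without the 17 rule genes. Intervals are exact Poisson or exact binomial intervals at 95%, and the floor for a count of 0 is 3 UMIs over the group. No test was run.

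Clusters were made with scanpy 1.11.5 and leidenalg 0.10.2 (2000 variable genes, 30 components, 15 neighbours, resolution 1, without the rule and listed genes) under Python 3.11.15, numpy 2.4.6 and scipy 1.17.1. Scrublet (expected rate 0.06) marked doublets, none of which was removed. The log2 differences and their intervals were tested on simulated summed counts with Poisson error and no variation between cells. The rule, the marker limits and the clusters were not tested in this way. The members and the gene lists were chosen with earlier results of these data known. Genes were named as the 10 highest and 10 lowest of each comparison at P0 and against E16.5, and from 23 lists, those with the largest differences or of the role the list is about. Some genes that met this rule are not reported here. Cpe and Nppc were named after their values had been seen. Positions are from GENCODE vM21, in which 420 of 422 symbols matched. Limits for cells of other types, 3 of 8 markers (5 for adipocytes, 6 for keratinocytes), were set after seeing the data.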

Additional observations from a re-analysis of the deposited data

Results flagged for a closer look

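For 5 genes the difference between deep and upper dermal cells passed 2-fold in opposite directions at P0 and E16.5. The difference between the stages was not tested, since each stage has 1 library. Osr2 stood at log2 -2.51 at P0 (130.5 against 792 CPM) and at 1.30 at E16.5 (139 against 50.6 CPM), so its level in deep cells was close at both stages and the upper dermal level differed. Dkk2, a secreted Wnt inhibitor, stood at -1.56 at P0 (4.31 against 32.0 CPM) and 2.34 at E16.5 (75.8 against 6.99 CPM). Nppc, which encodes C-type natriuretic peptide, stood at -1.60 (0.431 against 21.7 CPM) and 3.10 (90.2 against 1.72 CPM), and Dpp4 at -1.36 (10.8 against 43.2 CPM) and 1.0 (19.7 against 4.79 CPM). Cpe, a carboxypeptidase of prohormones, stood at -1.11 (186 against 412 CPM) and 1.57 (43.2 against 7.95 CPM). Between fibroblast-like cells the signs were the same at both stages, and Dpp4 at E16.5 stood at 0.95, below 2-fold.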

How the results depend on the processing

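No paired analysis was possible because each stage has 1 library. For the same reason no result has a replicate check, and the intervals cover counting error only. The number of members was 513 with a difference of at least 1 and 172 with at least 3, 70 among cells with at least 2500 genes, 197 and 183 with Dpt or Aspn left out of the rule, and 47 without cells that had 3 or more markers of any other type.

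Against the reference, 135 genes were higher in cells with at least 2500 genes, 454 with 1 CPM added and 61 with 50 CPM added. Lower genes there numbered 311 at a difference of at least 3, 304 with cells thinned to 3500 UMIs, 610 without cells of other types, 889 and 42 with 1 and 50 CPM added, and 333 between fibroblast-like cells, a setting added after seeing the data. Against upper dermal cells, higher genes numbered 245 with at least 2500 genes, 238 without cells of other types, 649 and 121 with 1 and 50 CPM added and 213 with a minimum of 200 UMIs, and lower genes 193 and 498 at a difference of at least 1 and 3, 667 without cells of other types, and 824 and 67 with 1 and 50 CPM added. Between stages, higher genes numbered 122 without cells of other types, 106 with 50 CPM added and 148 with a minimum of 200 UMIs, and lower genes 75, 86 and 201 under these and 963 with 1 CPM added.

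Signs changed for a few named genes. Between fibroblast-like cells Timp3 stood at -0.039 against the reference and -1.06 between stages, and G0s2 at -0.082 against upper dermal cells. With Aspn left out Pdgfrb stood at -0.066 against the reference, and with Dpt or Mfap4 left out Cfd stood at -0.12 and -0.018 against upper dermal cells. Among cells with at least 2500 genes Igfbp2 stood at -1.27 against upper dermal cells and Eln at -0.28 between stages, and without cells of other types Cxcl14 stood at 0.065 and Ly6c1 at -0.78 between stages. The cause of these changes was not tested.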
